A study of Mus musculus with 138 samples.

Results

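SMARCA5 is the motor subunit of the mammalian ISWI chromatin remodellers. The 10 genes described here are Smarca5 and the genes of 9 proteins that work with it or with its close relative SMARCA1: Baz1a, Baz1b, Baz2a, Baz2b, Bptf, Rsf1, Cecr2, Chrac1 and Pole3. They were taken by name from both tables of gene counts, and all 10 were among the 25900 genes of those tables. RNA was measured in single wells of mouse embryos at the 2-cell stage, with 116 libraries from embryos kept of 135. Levels are relative to all RNA read in a well, so less RNA of a gene per embryo and more RNA of other genes cannot be told apart. Whether the partners' RNA differs when SMARCA5 is missing is the question the comparisons address.

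ISWI remodellers are machines that use ATP to slide nucleosomes along DNA and to set their spacing. The motor is paired with a large regulatory subunit that decides where the machine works, so that one motor serves several complexes. At the 2-cell stage the mouse embryo switches from RNA stored in the egg to RNA made from its own genome, and a difference in RNA at this stage can come from either source.

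In the maternal deletion experiment, 28 kept libraries were from embryos labelled Smarca5 +/-, the offspring of females with Smarca5 deleted in the egg and of wild-type males. They were compared with 22 libraries labelled Smarca5 +/+. The titles of both groups name matKO females, and neither the Cre driver nor the deleted exons are given in the sources used here. Deletion embryos lack the egg's intact copy and also have a single intact allele, from the father, and these states cannot be told apart. In the TrimAway experiment, wild-type zygotes were injected so that an antibody would lead SMARCA5 protein to the ubiquitin ligase TRIM21 and to degradation, and they were collected at the 2-cell stage at least 24 hours later. It held 31 kept libraries with an antibody against SMARCA5 (anti-SMARCA5), 20 with IgG as the control antibody and 15 from embryos without injection. TrimAway acts on protein, so Smarca5 RNA is not a check of the depletion there. Strain and age of the animals are not given in the sources used here. A replicate number names a pool of embryos, replicates are called technical by the submitters, and p-values measure the spread between these embryos only.

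Kept libraries held from 109007 to 12004992 counts. Deletion libraries were the deeper ones in replicate 2, with a median of 4686051 counts against 650104.5 for wild type. Trim21 RNA, the trace of the injected mix, was at 0 in all 10 IgG libraries of replicate 1 and in 1 anti-SMARCA5 library of replicate 2 (well C02). It ranged from 304 to 8149 TMM-scaled CPM (counts scaled to a fixed library size by the library's total and a factor that evens out composition) in the 17 anti-SMARCA5 libraries of replicate 1. All 6 IgG libraries of replicate 2 had too few counts to be kept. In 2 libraries labelled deletion Smarca5 was near the wild-type median of 333 CPM, at 293 CPM in well A04 of replicate 2 and 314 CPM in well H09 of replicate 1. Their Baz1a levels were 354 and 185 CPM, where the wild-type median was 326 CPM. The 3 wells without an embryo held 453 to 1875 counts in all, with at most 1 count of Smarca5 and 5 of Baz1a.

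Per kilobase of annotated exon, the median level of the 10 genes in wild-type embryos was highest for Baz1a (45.5 CPM per kb), Smarca5 (42.8 CPM per kb) and Cecr2 (37.1 CPM per kb). Their middle ranges over libraries overlapped, so the order among these 3 was within the spread. Bptf (30.4 CPM per kb) and Pole3 (23.6 CPM per kb) followed, then Baz2a, Baz1b and Chrac1 at 13.9, 11.1 and 7.22 CPM per kb. Baz2b and Rsf1 were lowest, at 3.29 and 1.62 CPM per kb. In the uninjected, IgG and anti-SMARCA5 groups Smarca5 had the highest median level, at 62.2, 83.4 and 47.3 CPM per kb, and Baz1a came next. In deletion embryos the order was different, with Pole3 first at 53.7 CPM per kb and Smarca5 sixth at 11.5 CPM per kb. Smarca1, the other ISWI motor gene, had 0 counts in 22 of 22 wild-type and 27 of 28 deletion libraries. In the TrimAway experiment it was low but present. Its geometric means in uninjected, IgG and anti-SMARCA5 embryos were 0.04, 0.34 and 0.12 CPM in replicate 1. In replicate 3 they were 1.85, 1.26 and 0.71 CPM.

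**Figure D1:**
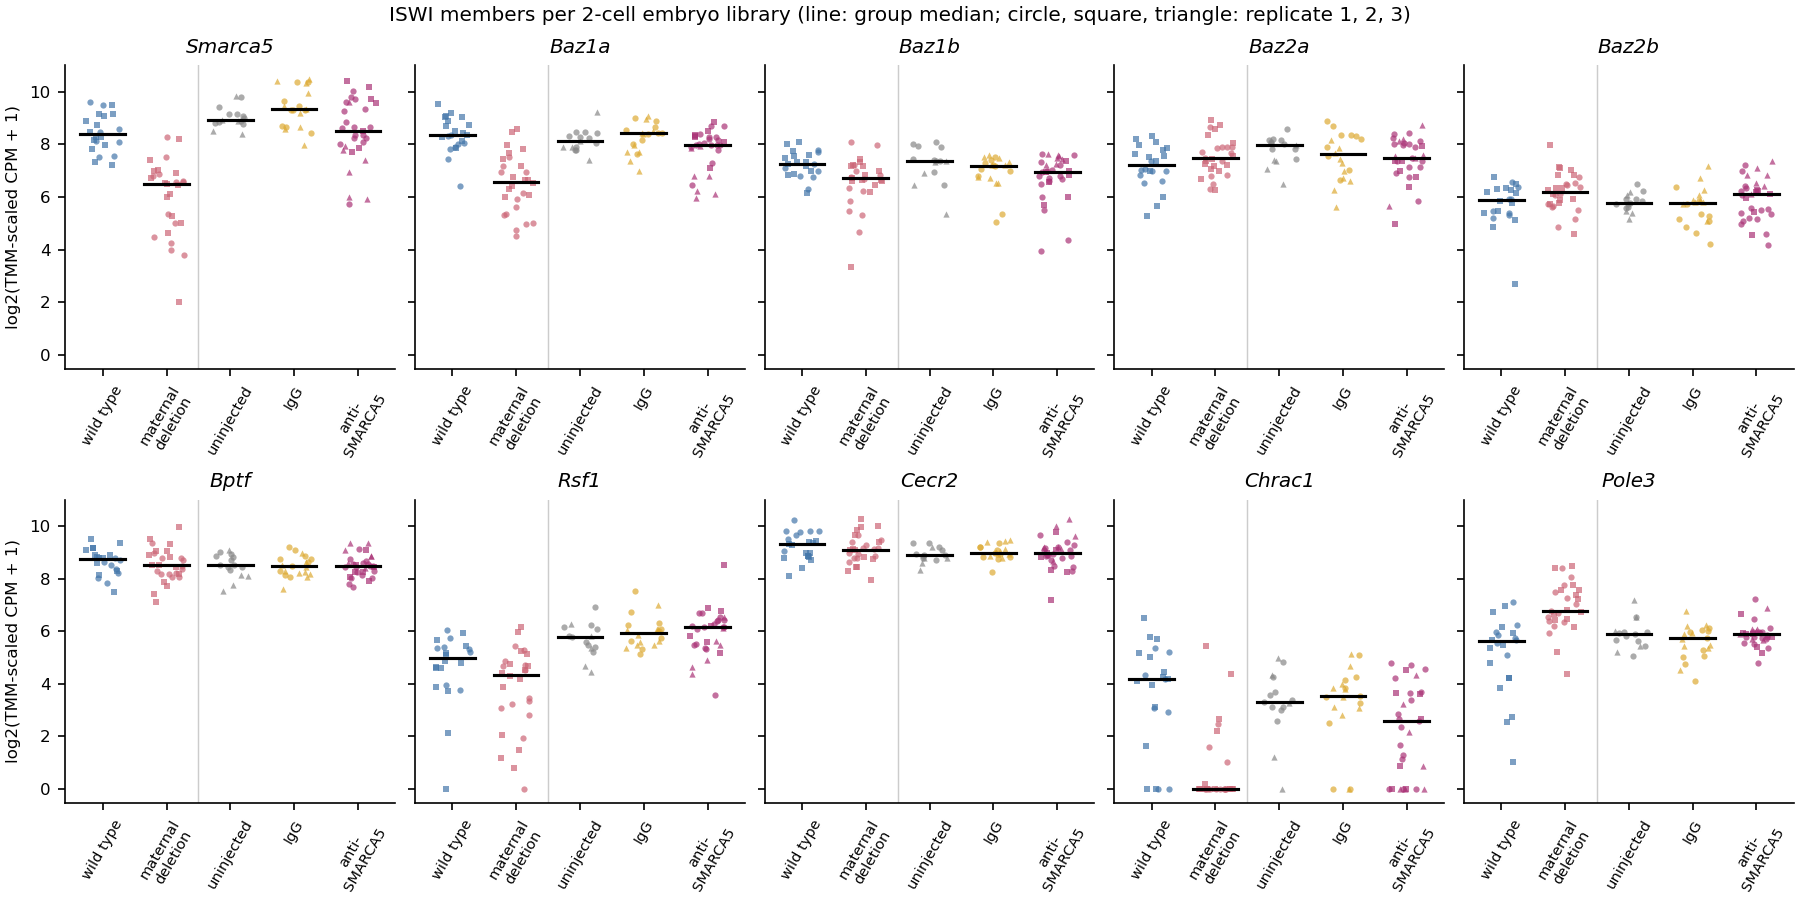
Level of each of the 10 genes in every kept embryo library, as log2(TMM-scaled CPM + 1), in the 5 groups. Each point is 1 library, its shape gives the replicate, and the line is the group median. Smarca5 and Baz1a are low and Pole3 is high in maternal deletion embryos, most Chrac1 values there are 0, and Bptf and Cecr2 lie at similar heights in all groups.

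After maternal deletion, RNA of Smarca5 itself and of Baz1a, its ACF and CHRAC partner, fell about 4-fold and 3-fold, and RNA of Pole3, a small CHRAC subunit, rose about 3-fold. The other 6 genes that could be tested did not pass the threshold, among them Bptf and Cecr2, whose estimates over both replicates lay close to 0. Cecr2 was called lower when replicate 2 was left out. Of the 9 members tested, 3 were called (edgeR quasi-likelihood test, Benjamini-Hochberg adjusted p under 0.05), where 56.6% of all 8518 genes tested were called (30.3% higher and 26.4% lower). This share of members was not above that of all genes. The 3 called include Smarca5, the deleted gene, so the partners among them were Baz1a and Pole3. The median log2 fold change of the 9 members was -0.09, beside 0.18 over all genes. With scaling by total counts alone the median over all genes moved to -0.04, and Smarca5, Baz1a and Pole3 were then at -2.30, -1.86 and 1.32.

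Smarca5 (chr8:80698507-80739497 of GRCm38, minus strand) ranged from 148 to 793 CPM in wild-type embryos, with a median of 333 CPM. In deletion embryos it ranged from 3.03 to 314 CPM, with a median of 89.7 CPM. All 28 deletion libraries were under the wild-type median, although the ranges of the groups overlapped. The log2 fold change was -2.06 (SE 0.31, edgeR adjusted p = 2.63e-07, n = 28 and 22). The difference was of like size in both replicates, with differences of mean log2(CPM + 1) of -2.58 in replicate 1 and -2.32 in replicate 2. Gene counts can include exons outside the deleted part and RNA from the father's allele, so the remaining level is not a measure of intact maternal RNA. Without wells A04 and H09 the log2 fold change of Smarca5 was -2.34. These wells had the highest Smarca5 of the deletion group, so a larger difference without them follows from the choice.

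Baz1a (chr12:54892989-55014348, minus strand) encodes the large subunit that joins SMARCA5 in the nucleosome-spacing complexes ACF and CHRAC. Its level was 85.0 to 735 CPM in wild-type embryos, with a median of 326 CPM, and 21.7 to 385 CPM in deletion embryos, with a median of 94.8 CPM. Only 2 of 28 deletion libraries were above the wild-type median, 1 of them the library of well A04. The log2 fold change was -1.59 (SE 0.27, edgeR adjusted p = 2.63e-06), and -1.71 without well A04. Within replicates the differences of mean log2(CPM + 1) were -1.93 and -1.60. Baz1a overlaps the annotated gene Gm20403 on the same strand, and how reads in the overlap were assigned is not stated.

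Chrac1 and Pole3 encode the small histone-fold proteins that pair with each other in CHRAC, and their values after deletion lay on opposite sides of wild type. Chrac1 (chr15:73090392-73097554, plus strand) was too low for the filter on counts and so was not among the 9 genes tested. In wild-type embryos it ranged from 0 to 90.4 CPM with a median of 17.0 CPM, and 4 of 22 libraries were at 0. In deletion embryos 20 of 28 libraries were at 0. Median depth was 1618485.5 counts in deletion and 545264.5 in wild-type libraries, and the part of depth in the zeros was not tested. The highest deletion library, at 42.8 CPM, was that of well A04. With no filter on low counts the log2 fold change was -2.93 (SE 0.79, edgeR adjusted p = 0.00166). It also passed the filter when replicate 1 was left out, and was then at -2.39 and not called (SE 1.13, edgeR adjusted p = 0.0854). Chrac1 overlaps Eif2c2 on the opposite strand, and without a statement on strand the reads of the pair cannot be told apart.

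Pole3 (chr4:62522649-62525068, minus strand) is also a subunit of DNA polymerase epsilon, the replicative polymerase of the leading strand. It was at 1.04 to 138 CPM in wild-type embryos, with a median of 48.1 CPM, and at 19.6 to 353 CPM in deletion embryos, with a median of 109.5 CPM. Deletion libraries were above the wild-type median in 26 of 28 cases, and the ranges overlapped. The log2 fold change was 1.55 (SE 0.33, edgeR adjusted p = 0.000101). The difference of mean log2(CPM + 1) was 1.08 in replicate 1 and 2.18 in replicate 2. In 3 wild-type libraries of replicate 2 no more than 2 counts of Pole3 were read.

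The bases just before the annotated starts of Smarca5 and Pole3, both called after deletion, are shown as a description. Smarca5 was itself the deleted gene, and a link of these bases to the changes in RNA was not tested. RefSeq's table for GRCm38.p6 held a promoter for 6 of the 10 genes and none for Baz1a, Rsf1, Cecr2 or Chrac1. Both stretches lie upstream of every annotated exon and read 5′ to 3′ on the strand of the gene, at chr8:80739498-80739709 for Smarca5 and chr4:62525069-62525264 for Pole3. Capitals mark the GC box GGGCGG on either strand.
Smarca5: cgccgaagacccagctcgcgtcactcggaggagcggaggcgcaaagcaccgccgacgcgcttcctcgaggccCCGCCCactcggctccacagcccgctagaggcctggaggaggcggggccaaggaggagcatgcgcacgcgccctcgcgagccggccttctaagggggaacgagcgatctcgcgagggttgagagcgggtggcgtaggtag
Pole3: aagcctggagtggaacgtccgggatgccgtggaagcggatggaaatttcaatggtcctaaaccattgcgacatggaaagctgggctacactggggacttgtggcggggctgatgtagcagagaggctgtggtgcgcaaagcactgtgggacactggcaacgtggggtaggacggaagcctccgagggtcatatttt
The Smarca5 stretch was 71.2% G and C over 212 bases and held 1 GC box, which 27.2% of 32851 promoter windows of that length held. The Pole3 stretch was 56.6% G and C over 196 bases and held none, against 23.9% of windows of its length. Those windows were the first bases of each promoter entry and, unlike the printed stretches, were not cut at annotated exons. Neither stretch held, on either strand, the CCAAT box (letters CCAAT, 30.1% of windows of 212 bases), the E-box of letters CACGTG (4.7%), the core for ETS factors, CCGGAAG (4.6%), or the TATA box of letters TATAAA (9.6%). A missing match says only that these letters are not in the window. Members not called in the main fit held such letters too. The stretch before Baz1b held 2 GC boxes and 1 CCAAT box, and that before Bptf 2 GC boxes and 1 E-box.

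The regulatory subunits of the other SMARCA5 complexes did not pass the threshold after deletion. Baz1b, of the WICH complex that works at replication sites, had a median of 152 CPM in wild-type (70.3 to 271 CPM) and 104 CPM in deletion embryos (9.09 to 271 CPM). Its log2 fold change was -0.51 (SE 0.23, edgeR adjusted p = 0.0541), with 24 of 28 deletion libraries under the wild-type median. Under 5 of 11 alternatives it was called lower, at -0.78 with total counts alone, and its adjusted p ranged from 0.0052 to 0.427. Rsf1, the histone-binding subunit of the RSF complex, was low in both groups, at 0 to 65.0 CPM (median 30.8 CPM) and 0 to 71.5 CPM (median 19.4 CPM). Its log2 fold change was -0.57 (SE 0.43, edgeR adjusted p = 0.247).

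Baz2a, the large subunit of the NoRC complex that silences ribosomal RNA genes, and the related bromodomain gene Baz2b lay slightly higher in deletion embryos. Baz2a had medians of 149 CPM in wild-type (37.5 to 318 CPM) and 177 CPM in deletion embryos (76.5 to 485 CPM), with a log2 fold change of 0.35 (edgeR adjusted p = 0.187). Baz2b had medians of 58.0 CPM (5.42 to 109 CPM) and 72.3 CPM (23.2 to 249 CPM), with a log2 fold change of 0.46 (edgeR adjusted p = 0.106). For both, 19 of 28 deletion libraries were above the wild-type median, and the approximate 95% intervals of the log2 fold change were -0.10 to 0.80 and -0.02 to 0.94.

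Bptf and Cecr2, the large subunits of NURF and CERF, are best known with SMARCA1 as the motor. Bptf had a median of 428 CPM in wild-type (181 to 719 CPM) and 364 CPM in deletion embryos (136 to 996 CPM). Its log2 fold change of -0.06 had an approximate 95% interval of -0.42 to 0.29 (edgeR adjusted p = 0.775). Cecr2 had medians of 633 CPM (275 to 1211 CPM) and 547 CPM (247 to 1222 CPM), and its log2 fold change was -0.09 (approximate 95% interval -0.44 to 0.26, edgeR adjusted p = 0.690). The 2 replicates gave different estimates for Cecr2. Its wild-type median was 879.7 CPM in replicate 1 and 485 CPM in replicate 2, while the deletion medians were 554 and 539.9 CPM. Without replicate 2 Cecr2 was called lower, at -0.62 (SE 0.19, edgeR adjusted p = 0.0112), and without replicate 1 it was at 0.39 and not called (SE 0.25, edgeR adjusted p = 0.207). The effect in replicate 2 exceeded that in replicate 1 by 0.87 (log2, SE 0.32, edgeR p = 0.00904), which was not called after adjustment (adjusted p = 0.155, 0.028 to 0.688 over alternatives). No member's deletion effect was called different between replicates, where 0.763% of 8518 genes were, and 1 of the 9 had an unadjusted p under 0.05. With DESeq2 likewise 0 members were called. Without wells A04, G05 and H05 Cecr2 was called, at 1.003 (adjusted p = 0.028).

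Marker lists were summed in the same libraries. A list of 10 oocyte and maternal transcripts summed to 229 to 4188 CPM in wild-type libraries (median 1069 CPM) and to 508 to 32220.3 CPM in deletion libraries (median 11144 CPM). After deletion 9 of 9 genes of the list that were tested were called higher, where 30.3% of all genes were. The lone gene of that list at 0 was Figla, in wild-type embryos. A list of 2-cell stage genes, of which 10 of 12 were in the tables, had medians of 521 CPM (33.3 to 1750 CPM) and 269 CPM (0 to 1927 CPM). Of its genes 3 of 7 tested were called lower, where 26.4% of all genes were. Summed levels of 10 cumulus and granulosa genes had medians of 6.73 and 41.0 CPM (0 to 80.1 and 0 to 108 CPM), with Inhba, Cyp11a1 and Foxl2 at 0 in wild-type and Ptx3 at 0 in deletion embryos. Of that list 1 gene could be tested, and 0 were called. In anti-SMARCA5 against IgG, 0 of 8 maternal and 0 of 8 2-cell stage genes tested were called, where 3.03% of all genes were. The part of the marker differences after deletion in the changes of Smarca5, Baz1a and Pole3 was not tested. Wild-type wells G05 and H05 of replicate 2 had the lowest Smarca5 of their group (148 and 159 CPM). Without them and well A04 the log2 fold changes were -2.28 for Smarca5, -1.75 for Baz1a and 1.74 for Pole3. For Smarca5 a larger difference follows from that choice of wells.

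**Figure D2:**
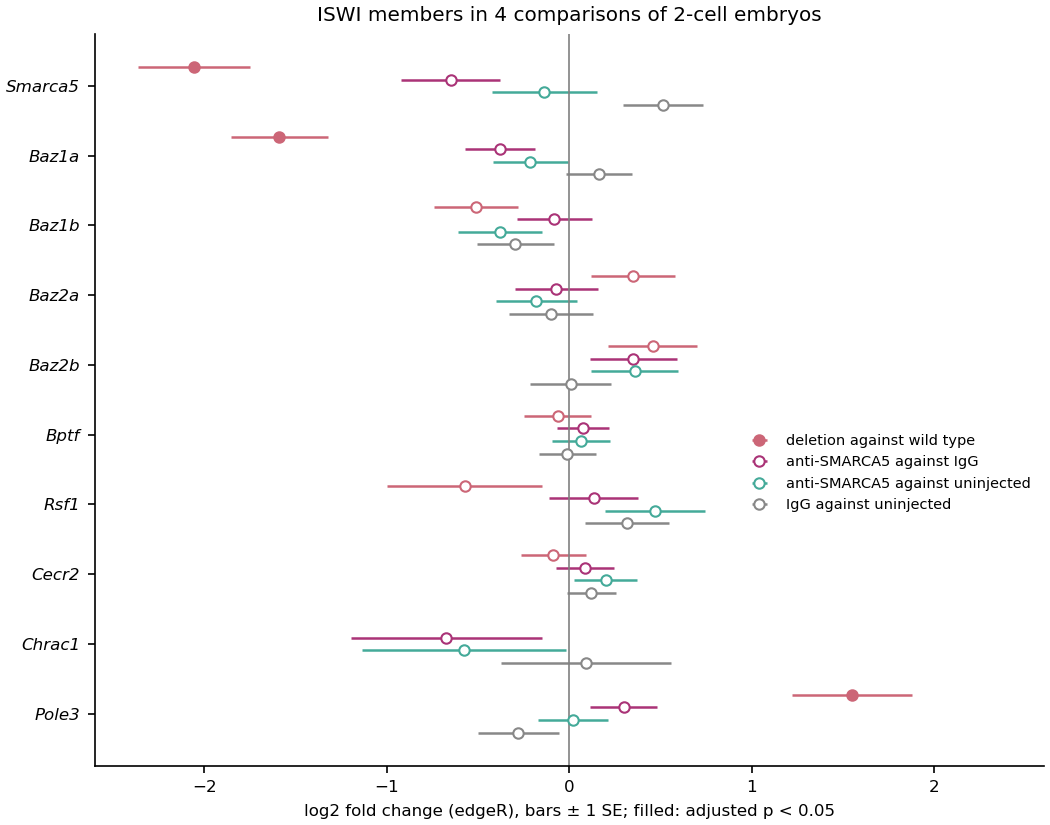
Log2 fold change of each of the 10 genes in 4 comparisons, with bars of 1 SE (edgeR), and filled points where the adjusted p was under 0.05. The filled points are Smarca5, Baz1a and Pole3 in the deletion comparison (-2.06, -1.59 and 1.55), and no point is filled in the TrimAway comparisons. Chrac1 has no point for the deletion because it was too low for the filter.

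After TrimAway, no member was called in the main comparison of anti-SMARCA5 with IgG, and Smarca5 and Baz1a were called lower once the replicate number was a term of the fit. With edgeR, 0 of 10 members were called, where 3.03% of 10447 genes were called, and 1 member, Smarca5, had an unadjusted p under 0.05. With DESeq2 likewise 0 members were called. With the replicate number as a block, 25.8% of genes were called and so were 2 of 10 members. Within replicate 3, 16.5% of genes and 2 members were called.

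Smarca5 had medians of 648 CPM in IgG (248 to 1437 CPM), 368 CPM in anti-SMARCA5 (52.0 to 1349 CPM) and 484 CPM in uninjected embryos (334 to 919 CPM). The ranges overlapped throughout, and 21 of 31 anti-SMARCA5 libraries were under the IgG median. Against IgG the log2 fold change was -0.65 (SE 0.27, edgeR adjusted p = 0.124), and with the replicate block it was -1.02 (SE 0.30, edgeR adjusted p = 0.0138, 0.0138 to 0.479 over alternatives). In replicate 1 alone, where the IgG libraries had no Trim21 RNA, it was -0.53 (edgeR adjusted p = 0.297). In replicate 3 alone, where the IgG median of Trim21 was 296 CPM, it was -1.76 (SE 0.49, edgeR adjusted p = 0.0244). The 7 anti-SMARCA5 libraries of replicate 3 lay at 59.2, 62.8, 122, 170.0, 218, 246 and 780.2 CPM, and 6 of them were under the lowest IgG library of that replicate, at 248 CPM.

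Baz1a followed the same order of groups, with medians of 341 CPM in IgG (127 to 539 CPM), 254 CPM in anti-SMARCA5 (61.5 to 463 CPM) and 279.7 CPM in uninjected embryos (171 to 599.8 CPM). Of 31 anti-SMARCA5 libraries, 27 were under the IgG median. Against IgG the log2 fold change was -0.38 (SE 0.19, edgeR adjusted p = 0.194). With the replicate block it was -0.69 (SE 0.20, edgeR adjusted p = 0.0109, 0.0109 to 0.527 over alternatives). Replicate 3 alone gave -1.22 (SE 0.37, edgeR adjusted p = 0.0308) and replicate 1 alone -0.33 (edgeR adjusted p = 0.334). The Baz1a levels of the 7 anti-SMARCA5 libraries of replicate 3 were 61.5, 69.1, 73.2, 110.0, 111, 232 and 248 CPM. Of these, 5 were under the lowest of the 10 IgG libraries of that replicate, at 127 CPM.

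No other member passed the test against IgG, with or without the block. Pole3 had medians of 52.5 CPM in IgG (16.4 to 108 CPM) and 58.7 CPM in anti-SMARCA5 embryos (26.4 to 148 CPM), with a log2 fold change of 0.30 (approximate 95% interval -0.06 to 0.66, edgeR adjusted p = 0.280). Chrac1 was at 0 to 34.1 CPM (median 10.6 CPM, 3 of 20 at 0) in IgG and at 0 to 27.0 CPM (median 4.97 CPM, 8 of 31 at 0) in anti-SMARCA5 embryos. Its log2 fold change was -0.67 (SE 0.52, edgeR adjusted p = 0.394). Against IgG, Chrac1 lay on the lower side and Pole3 on the higher side, as after deletion, but neither passed the test, and against uninjected embryos Pole3 was at 0.02.

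For the remaining subunits the log2 fold changes against IgG were 0.35 for Baz2b (SE 0.24), 0.13 for Rsf1 (SE 0.24) and -0.08 for Baz1b (SE 0.21). They were -0.07 for Baz2a (SE 0.23), 0.08 for Bptf (SE 0.14) and 0.09 for Cecr2 (SE 0.16). Adjusted p-values of these 6 genes (edgeR) ran from 0.324 to 0.856. The intervals were narrowest for the NURF and CERF subunits, -0.20 to 0.36 for Bptf and -0.22 to 0.39 for Cecr2. Bptf medians were 366, 354 and 362 CPM in uninjected, IgG and anti-SMARCA5 embryos, and Cecr2 medians were 479, 508 and 509 CPM.

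Against uninjected embryos, which share the anti-SMARCA5 libraries with the comparison above, 0 of 10 members were called with edgeR and 0 had an unadjusted p under 0.05, where 27.9% of 10750 genes were called. DESeq2 likewise called 0 members. The fit held 7 anti-SMARCA5 libraries of replicate 2, a number with no uninjected library. The log2 fold changes were -0.14 for Smarca5 (SE 0.29), -0.21 for Baz1a (SE 0.21), 0.02 for Pole3 (SE 0.19, above 0 in 7 of 12 alternatives) and -0.38 for Baz1b (SE 0.23), and those of the other 6 genes lay between -0.58 (Chrac1) and 0.47 (Rsf1). Within replicate 3, where 26.7% of genes were called, 2 of 9 members were called, Baz1a lower at -1.25 (SE 0.43, edgeR adjusted p = 0.0403, up to 0.991 over alternatives) and Baz2b higher at 1.08 (SE 0.37, edgeR adjusted p = 0.0395, up to 0.942 over alternatives). Smarca5 was at -1.14 there (SE 0.54, edgeR adjusted p = 0.118). Within replicate 1 Baz1a was at -0.04 and Smarca5 at -0.11. The median over all genes was 0.13, and -0.29 with total counts alone, and under that scaling Smarca5 and Baz1a were at -0.58 and -0.62.

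Between the control groups, IgG against uninjected embryos, 0 of 10 members and 0.0% of 9915 genes were called with edgeR, 1440 genes had an unadjusted p under 0.05, and DESeq2 called 207 genes (2.09%). Smarca5 was the 1 member with an unadjusted p under 0.05, at 0.51 higher in IgG embryos (log2, SE 0.22, adjusted p = 0.265, 0.136 to 0.653 over alternatives). The estimate for anti-SMARCA5 embryos was -0.65 against IgG and -0.14 against uninjected embryos. Both fits held anti-SMARCA5 libraries of replicate 2, a number with no kept library of either control. Within replicates 1 and 3 the differences of mean log2(CPM + 1) of Smarca5 were -0.68 and -2.07 against IgG. Against uninjected embryos they were -0.41 and -1.54. Baz1a was at 0.16 (SE 0.18), Pole3 at -0.28 (SE 0.22) and Baz1b at -0.30 (SE 0.21).

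**Figure D3:**
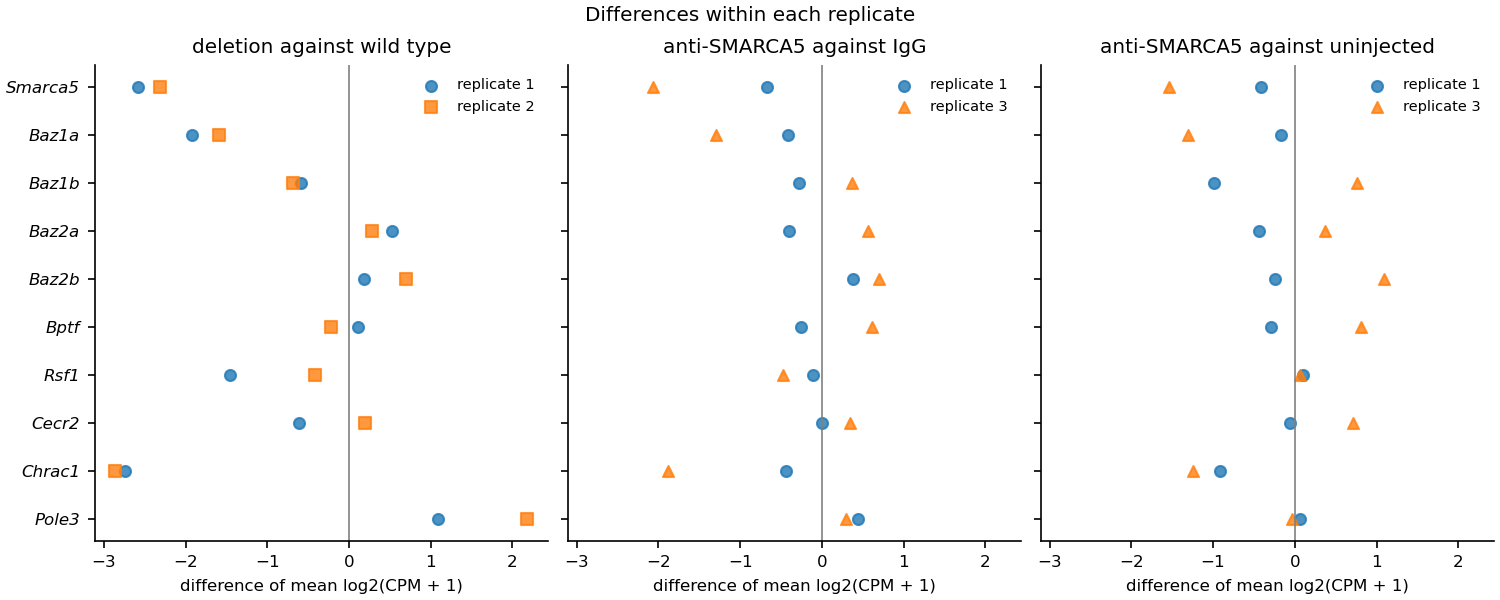
Difference of mean log2(TMM-scaled CPM + 1) between groups within each replicate, for the 10 genes in 3 comparisons. Smarca5 and Baz1a lie left of 0 in every replicate shown. After TrimAway the triangles of replicate 3 (-2.07 and -1.30 against IgG) lie further left than the circles of replicate 1 (-0.68 and -0.41).

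The deletion and TrimAway effects were called different for 3 members, and those calls depended on the replicates. In a fit of all 4 groups without a replicate term, 3 of 10 members were called, where 19.2% of 12035 genes were. For Smarca5 unequal effects on RNA follow from the design, as the deletion removes the gene and TrimAway acts on protein. The fit held 7 anti-SMARCA5 libraries of replicate 2, a number with no kept IgG library. Against IgG, differences of mean log2(CPM + 1) in replicates 1 and 3 were -0.68 and -2.07 for Smarca5. For Baz1a they were -0.41 and -1.30. The deletion effect minus the TrimAway effect against IgG was -1.48 for Smarca5 (SE 0.42, edgeR adjusted p = 0.00775), -1.27 for Baz1a (SE 0.33, edgeR adjusted p = 0.00434) and 1.18 for Pole3 (SE 0.36, edgeR adjusted p = 0.0147). With the replicate block Smarca5 was at -1.12 and not called (edgeR adjusted p = 0.0794). Chrac1 had the estimate furthest from 0 of the 10 members, -2.22, and was not called (SE 0.96, edgeR adjusted p = 0.0894, 0.00847 to 0.647 over 13 alternatives, of which 5 called it). Without replicate 1, 0 members were called. Without replicate 2 the 1 member called was Chrac1, at -3.74 (edgeR adjusted p = 0.0116), and Smarca5, Baz1a and Pole3 were not called. The experiments differed in lane, in collection and in whether the gene or the protein was removed, and these cannot be told apart.

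Other genes that encode proteins of these complexes were counted from a list of 14. After deletion 8 of the 13 tested were called, 5 lower and 3 higher, beside 56.6% of all genes. Of the other ISWI subunits, the histone-binding proteins Rbbp4 and Rbbp7 went opposite ways, at -0.83 (SE 0.29, edgeR adjusted p = 0.0127) and 0.88 (SE 0.28, edgeR adjusted p = 0.00598). Without replicate 1 they were at -0.42 and 0.24, and neither was called (edgeR adjusted p = 0.352 and 0.457), nor was either with at least 500000 counts. For Rbbp7 the effect in replicate 2 minus that in replicate 1 was -1.37 (log2, SE 0.50, edgeR p = 0.00826, adjusted p = 0.15), and 2 of 8 alternatives called that difference. Of the other polymerase epsilon subunits, Pole4, the histone-fold partner of Pole3 in the polymerase, was called at 0.87 (SE 0.28, edgeR adjusted p = 0.00679). Its median was 260.3 CPM in wild-type (102 to 555 CPM) and 575 CPM in deletion embryos (21.8 to 1232 CPM). The difference of mean log2(CPM + 1) of Pole4 was 1.28 in replicate 1 and -0.17 in replicate 2. It was called under 7 of 11 alternatives, and not without replicate 1 (0.47, edgeR adjusted p = 0.353), with at least 500000 counts, with total counts alone or with every library. Pole, the catalytic subunit, and Pole2 were not called.

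Of 6 further proteins of B-WICH, the larger assembly of WICH with nucleolar and splicing proteins, 4 were lower and 1 higher, where 26.4% of all genes were lower and 30.3% higher. Mybbp1a, a nucleolar regulator of ribosomal RNA synthesis, had a median of 126 CPM in wild-type (6.63 to 479 CPM) and 0.538 CPM in deletion embryos (0 to 153 CPM). Its log2 fold change was -4.04 (SE 0.69, edgeR adjusted p = 4.08e-06). The RNA helicase Ddx21 was at -2.59 (SE 0.62), the repair factor Ercc6 at -2.04 (SE 0.49) and the splicing factor Sf3b1 at -1.36 (SE 0.24), and the nuclear myosin gene Myo1c was at 0.83 (SE 0.29). Without replicate 2, 4 of the 6 could be tested, and Mybbp1a and Ddx21 could not. Of the called genes tested there, Sf3b1 still was called, and Ercc6 and Myo1c were not. Differences of mean log2(CPM + 1) within replicate 1 were -4.17 for Mybbp1a and -1.54 for Ddx21. After TrimAway against IgG none of the 13 was called, with edgeR, where 3.03% of all genes were, and 3 had an unadjusted p under 0.05. With the replicate block 6 were called, beside 25.8% of all genes, Ercc6 (-1.23), Mybbp1a (-1.60), Ddx21 (-1.001), Rbbp4 (-0.62), Sf3b1 (-0.59) and Myo1c (0.71), each on the same side of 0 as after deletion. Against uninjected embryos 2 of 13 were called, beside 27.9% of all genes, Mybbp1a at -1.65 (edgeR adjusted p = 0.00955) and Dek at 0.59 (edgeR adjusted p = 0.0468, 0.0233 to 0.82 over 12 alternatives, of which 1 called it).

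Across single libraries, Baz1a gave most of the relations with Smarca5 that passed the test. Values were log2(CPM + 1) centred on each replicate's mean within a group, and 45 pairs of partner and group were tested with 100000 permutations within replicates. After Benjamini-Hochberg adjustment 5 pairs were called, all positive, and 4 of them were Baz1a. Genes other than the partners were not tested in this way, so no share over all genes stands beside this count. Pearson's r of Baz1a with Smarca5 was 0.69 in wild-type embryos (n = 22, adjusted permutation p = 0.009), 0.65 in deletion embryos (n = 28, adjusted permutation p = 0.009), 0.68 in IgG (n = 20, adjusted permutation p = 0.0285) and 0.64 in anti-SMARCA5 embryos (n = 31, adjusted permutation p = 0.0104). Spearman's rho was 0.67, 0.70, 0.67 and 0.56, with adjusted permutation p of 0.0204, 0.00405, 0.0305 and 0.0204. Of 5874 genes, 96.1%, 99.1%, 95.2% and 96.3% had an r no higher than that of Baz1a in these groups.

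Without the 2 libraries farthest from the median of Smarca5, r was 0.65 in wild-type, 0.66 in deletion, 0.62 in IgG and 0.36 in anti-SMARCA5 embryos, so that in the last group the relation rested in part on them. In uninjected embryos Baz1a had r = 0.54 (n = 15, raw permutation p = 0.137, adjusted p = 0.362), rho = 0.23 (adjusted permutation p = 0.722) and r = 0.09 without the 2 farthest libraries. Leaving out a replicate lowered the number of libraries, and without replicate 1 none of 36 pairs was called, while r of Baz1a stayed between 0.59 and 0.72 in the other 4 groups.

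**Figure D4:**
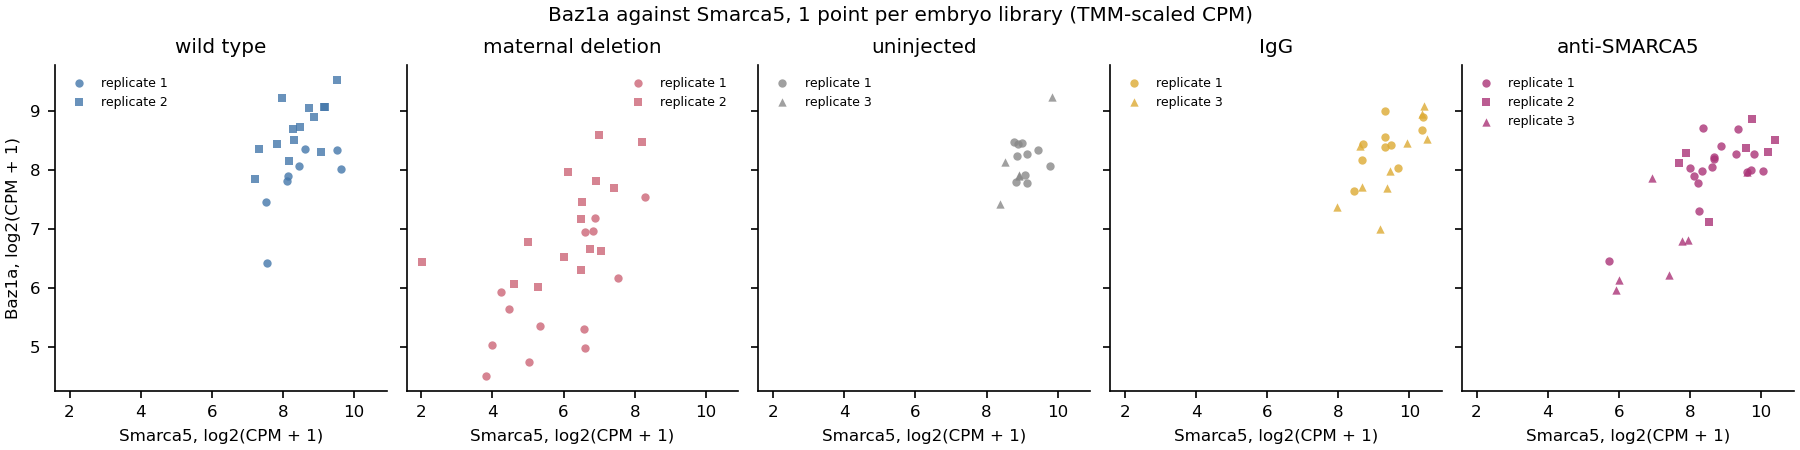
Baz1a against Smarca5 in log2(TMM-scaled CPM + 1), 1 point per kept embryo library, with 1 panel per group and the replicate as the shape. Libraries with more Smarca5 have more Baz1a in the wild-type, deletion, IgG and anti-SMARCA5 panels (r = 0.69, 0.65, 0.68 and 0.64 after centring), and the low corner of the anti-SMARCA5 panel is filled mostly by replicate 3.

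The fifth pair was Rsf1 in IgG embryos (r = 0.58, adjusted permutation p = 0.0483, and rho = 0.53, adjusted permutation p = 0.114). Of 5874 genes, 90.55% had an r no higher than that of Rsf1 there. In anti-SMARCA5 embryos Rsf1 had r = 0.48 (adjusted permutation p = 0.0645) and rho = 0.59 (adjusted permutation p = 0.0204). Chrac1 had r = 0.53 in wild-type (adjusted permutation p = 0.0676) and 0.47 in anti-SMARCA5 embryos (adjusted permutation p = 0.0645), with many values at or near 0. Baz2a (r = -0.49) and Pole3 (r = -0.44) had the lowest values in anti-SMARCA5 embryos, with adjusted permutation p of 0.0645 and 0.0806. Pole3 had r between -0.05 and -0.03 in wild-type, deletion and uninjected embryos, and none of its relations passed the test. Without the replicate centring 12 pairs were called, of which 8 were positive. Of the 12 pairs, positive or negative, 7 were of anti-SMARCA5 embryos.

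**Figure D5:**
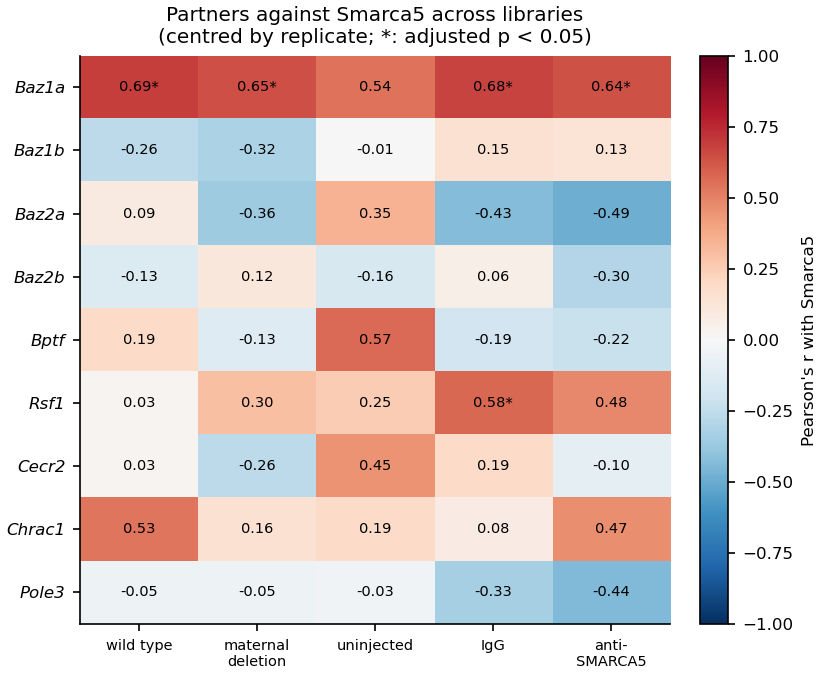
Pearson's r with Smarca5 across libraries, centred by replicate, for the 9 partners and 5 groups, with a star where the adjusted permutation p was under 0.05. The Baz1a row is positive throughout (0.54 to 0.69), and the remaining rows hold 1 star, Rsf1 in IgG embryos at 0.58.

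Baz1a was not the gene most like Smarca5. Over 116 libraries, and among 5874 genes with a mean log2 level of at least 4, the highest r with Smarca5 was that of Esf1 (0.84), an RNA-processing gene of the nucleolus. Next came the mitochondrial protease Yme1l1 (0.74), the ubiquitin ligase gene Cbll1 (0.73), the RNA helicase Skiv2l2 (0.72) and the chaperone gene Dnajb9 (0.72). Baz1a had rank 34 (r = 0.64) and Rsf1 rank 1251 (r = 0.30), where the median gene had r = 0.09. Baz1b, Baz2a, Baz2b, Bptf, Cecr2 and Pole3 had r between -0.31 and -0.06. These correlations share the libraries, their depths and their scaling, and are given as a description. After deletion the 5 genes were called lower as well, where 26.4% of all genes tested were. Their log2 fold changes were -2.31, -1.69, -2.46, -1.14 and -2.18 (edgeR adjusted p between 1.16e-07 and 0.00891). In anti-SMARCA5 against IgG none of them was called, where 3.03% of genes were. Their log2 fold changes there lay between -0.58 and -0.18 (edgeR adjusted p between 0.166 and 0.66).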

How the data were processed

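Polyadenylated RNA of single 2-cell embryos was sequenced by the RNA part of scNMT-seq, per the labels' protocols. The authors deposited 2 tables of unnormalized gene counts on GRCm38, per the file headers. The submitters' processing notes name Trim Galore 0.6.5, cutadapt 2.3 and HISAT2 2.1.0. How strand, multiple matches and duplicates were handled is not given in the sources used here. Lines of 1 identifier were summed (57 identifiers, 25900 genes left). Libraries under 100000 counts (19) were left out, and the fits took the groups compared.

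Tests used edgeR 4.0.16 in R 4.3.3 (TMM, filterByExpr, robust quasi-likelihood F test), tested on simulated data. Adjusted p-values cover all genes tested, and a gene under 0.05 is called. DESeq2 1.42.0 was an alternative, as were total counts, no filter, depth minimums of 1 and 500000, pseudocounts of 0.1 and 5 beside 1, a replicate block, and each replicate left out. The replicate numbers pair groups because the design text gives them as pools. Deviations of same-numbered group means correlated at 0.48 (deletion, wild type), 0.56 (anti-SMARCA5, IgG), 0.40 (IgG, uninjected) and 0.07 (anti-SMARCA5, uninjected) over 12888 genes. No 2 libraries of a group were identical. The members, the lists and the named genes (all members, listed pathway genes that passed the test, Trim21, and the 5 genes most like Smarca5) were chosen with earlier results of these data known. Levels per kilobase use GENCODE M21 exon lengths, and whether counting was over exons is not stated.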

Additional observations from a re-analysis of the deposited data

Results flagged for a closer look

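Deletion and TrimAway (against IgG) were compared in 1 fit. The test of unequal effects set 3 members apart, among them Smarca5, the deleted gene, whose RNA TrimAway does not target. The difference was -1.48 for Smarca5, -1.27 for Baz1a and 1.18 for Pole3 on the log2 scale, all further from 0 after deletion. Over 13 alternatives the adjusted p (edgeR or DESeq2) ran from 0.00147 to 0.204 for Smarca5, from 0.000881 to 0.184 for Baz1a and from 0.0007 to 0.0948 for Pole3, and 10, 11 and 10 of the 13 called them. Smarca5 was not called with the replicate block, without replicate 1 or without replicate 2, Baz1a not without replicate 1 or 2, and Pole3 not when any 1 of the 3 replicates was left out. Chrac1, at -2.22, was not set apart (edgeR adjusted p = 0.0894) but was called under 5 of the 13.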

How the results depend on the processing

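Smarca5, Baz1a and Pole3 kept their direction and their call after deletion under all 11 alternatives, with log2 fold changes of -2.34 to -1.91, -1.86 to -1.34 and 1.17 to 1.87. The -2.34 of Smarca5 came without wells A04 and H09, which had the highest Smarca5 of the deletion group. Members called after deletion were 5 with no filter (Chrac1 and Baz1b added), 4 with total counts, DESeq2, every library or without well A04 (Baz1b added), 4 without replicate 2 (Cecr2 added) and 3 under the rest. The other pathway genes called fell from 8 to 5 without replicate 1 and to 4 with at least 500000 counts. The replicate block, with numbers that pair pools, changed the calls of Smarca5 and Baz1a against IgG (2 members called, as within replicate 3) and of Smarca5 in the difference from TrimAway, and no other member's call. Against uninjected embryos 1 member was called with total counts alone (Baz1b, -0.82), 0 to 1 when a replicate was left out (Baz1b at -0.78 without replicate 3) and 2 within replicate 3 (Baz1a and Baz2b). For the difference between replicates, 1 was called without wells A04, G05 and H05. For the difference from TrimAway, 0 to 2 were called when a replicate was left out. For the relation to Smarca5, 3 pairs were called with at least 500000 counts, 12 with no replicate block, and 0 to 5 when a replicate was left out.

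In the comparisons between groups signs turned for the values below, with the range over left-out replicates where a replicate turned them, unless stated otherwise. After deletion these were Bptf (-0.040 to 0.13) and Cecr2 (-0.62 to 0.39). Against IgG, Baz1b turned with every library (0.023), the replicate block (0.035), a left-out replicate (-0.16 to 0.040) and within replicate 3 (0.36). Baz2a turned with every library (0.042), the block (0.046), a left-out replicate (-0.50 to 0.31) and within replicate 3 (0.66). Rsf1 turned with total counts (-0.13), the block (-0.21), a left-out replicate (-0.11 to 0.45) and within replicates 1 (-0.10) and 3 (-0.36). Bptf turned with total counts (-0.14), a left-out replicate (-0.19 to 0.40) and within replicate 1 (-0.19), and Cecr2 with total counts (-0.11). Against uninjected embryos, Smarca5 (-0.34 to 0.036), Baz1a (-0.45 to 0.0033) and Baz1b (-0.78 to 0.31) turned with a left-out replicate, and Baz1b within replicate 3 (0.60). Pole3 turned there with total counts (-0.39), DESeq2 (-0.10), at least 500000 counts (-0.013), a left-out replicate (-0.25 to 0.15) and within replicate 3 (-0.18). Over all alternatives of that comparison Rsf1 ran from -0.12 to 0.92, Baz2a from -0.58 to 0.50 and Baz2b from -0.18 to 1.08. Bptf ran from -0.41 to 0.73 and Cecr2 from -0.27 to 0.75. In IgG against uninjected, Baz1a turned with total counts (-0.10) and a left-out replicate (-0.020 to 0.31), and Baz1b with a left-out replicate (-0.58 to 0.28). Over all alternatives there Baz2a ran from -0.28 to 0.09, Baz2b from -0.47 to 0.44 and Bptf from -0.27 to 0.13. Cecr2 ran from -0.16 to 0.34 and Chrac1 from -0.17 to 0.18. The causes were not tested.

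Settings that leave out wells or keep 1 replicate were chosen after seeing the data. Wells A04 and H09 had the highest Smarca5 of the deletion group, and G05 and H05 the lowest of wild type. Leaving them out therefore widens the Smarca5 difference by construction. Chrac1, and in the deletion experiment Rsf1, rest on few counts per library, so differences in them were less detectable.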
